A study of Mus musculus with 7 samples.

Results

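The 10 genes described here encode the enzymes that write, copy and erase DNA methylation (Dnmt1, Dnmt3a, Dnmt3b, Uhrf1, Tet1, Tet2, Tet3), 2 isocitrate dehydrogenases that supply the TET cofactor (Idh1, Idh2), and the chromatin regulator Asxl1. They were listed by name, not by a cut on any measured value, though with earlier results of these data known. All 10 were found among 21627 protein-coding genes on chromosomes 1 to 19 and X. For each gene the measurement was the chromatin state of every 200 bp bin inside it and within 20 kb of either end, 995.2 kb in all. The cells were cultured leukaemia cells from BALB/c mouse bone marrow that carried mutant CSF3R and mutant CEBPA, both put in by retrovirus, and they were given either 4 nM GSK-LSD1, an inhibitor of the histone demethylase LSD1, or the solvent DMSO for 48 h. Both groups carried both mutant genes. The labels used here do not say how many animals or clones the cells came from. Chromatin immunoprecipitation of H3K4me1, H3K4me3 and H3K27Ac gave 1 library per mark and treatment, besides 1 input library, and the authors deposited 1 segmentation of the genome into 6 states, E1 to E6, per treatment.

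DNMT1 copies methylation to the new strand after replication, guided there by UHRF1, which binds hemimethylated CpG. DNMT3A and DNMT3B methylate unmodified DNA. The TET dioxygenases oxidise methylcytosine and use the alpha-ketoglutarate that IDH1, in the cytosol, and IDH2, in mitochondria, produce. Mutant forms of either IDH enzyme make an oncometabolite that inhibits TET enzymes. ASXL1 is the partner of the deubiquitinase BAP1, which acts on histone H2A. DNMT3A, TET2, IDH1, IDH2 and ASXL1 are among the genes most often mutated in human myeloid leukaemia. The values below concern histone marks at these genes; DNA methylation and expression were not measured in the files analysed here.

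With 1 segmentation per treatment there is no replicate check, no test could be made, and every value compares these 2 segmentations. Sequencing depth is unknown, since the files hold state labels and no counts. No source used here says which marks define a state. E3, which covered 70.1% of the genome in GSK-LSD1 and 73.3% in DMSO, was taken as background. E5 and E6, the states concentrated at gene ends, are called start-type. It is also not stated that any state, E5 and E6 included, means the same combination of marks in GSK-LSD1 as in DMSO, so a passage between states below is one between labels. E6 covered 2.08% of the genome in GSK-LSD1 and 0.217% in DMSO. The cells were measured in bulk, so a change in some of the cells and a smaller change in all of them cannot be told apart. Of 8 markers of granulocyte-monocyte progenitors and granulocytes, 7 had E5 or E6 at a gene end in GSK-LSD1 and 4 in DMSO (Prtn3, Spi1, Kit and Cd34). Mpo, Ctsg and Cebpe had it in GSK-LSD1 alone, and Elane in neither. The part of this difference in the results below was not tested. Among markers of other cells the same held in both treatments for 1 of 6 lymphocyte genes (Cd79a), 2 of 3 erythroid genes (Klf1 and Epor) and 1 of 4 stromal and endothelial genes (Pdgfrb).

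All 10 genes had E5 or E6 at an annotated transcription start in both treatments, counting any of their starts. The share over all genes was not computed for that count. Within 1 kb of the first start alone it held in both treatments at 9 of 10, against 56.7% of all genes. What differed was which of the 2 states the start carried and what surrounded it. At Dnmt1, Uhrf1, Tet2, Tet3, Idh2, Asxl1 and the internal start of Dnmt3a, E6 took up most of the run of start-type bins in GSK-LSD1, where E5 took up most of it in DMSO. At Dnmt3b, Tet1, Idh1 and the upstream starts of Dnmt3a, E5 stayed. Start-type area was larger by at least 1 kb in GSK-LSD1 at 9 of the 10 genes and smaller at 0, where 57.2% of all protein-coding genes had such an increase and 0.855% such a decrease. Among the 15313 genes with any E5 or E6 in the window in DMSO the share with an increase was 79.3%, so 9 of 10 is near what genes with start-type chromatin showed in general. The count depends on what is called start-type: it was 2 of 10 with E5 alone, against 17.9% of all genes. It was 5 of 10 with E4 counted too, and 5 of 10 with only the 2.5 kb around the members' own starts. For those 2 settings the share over all genes was not computed.

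**Figure D1:**
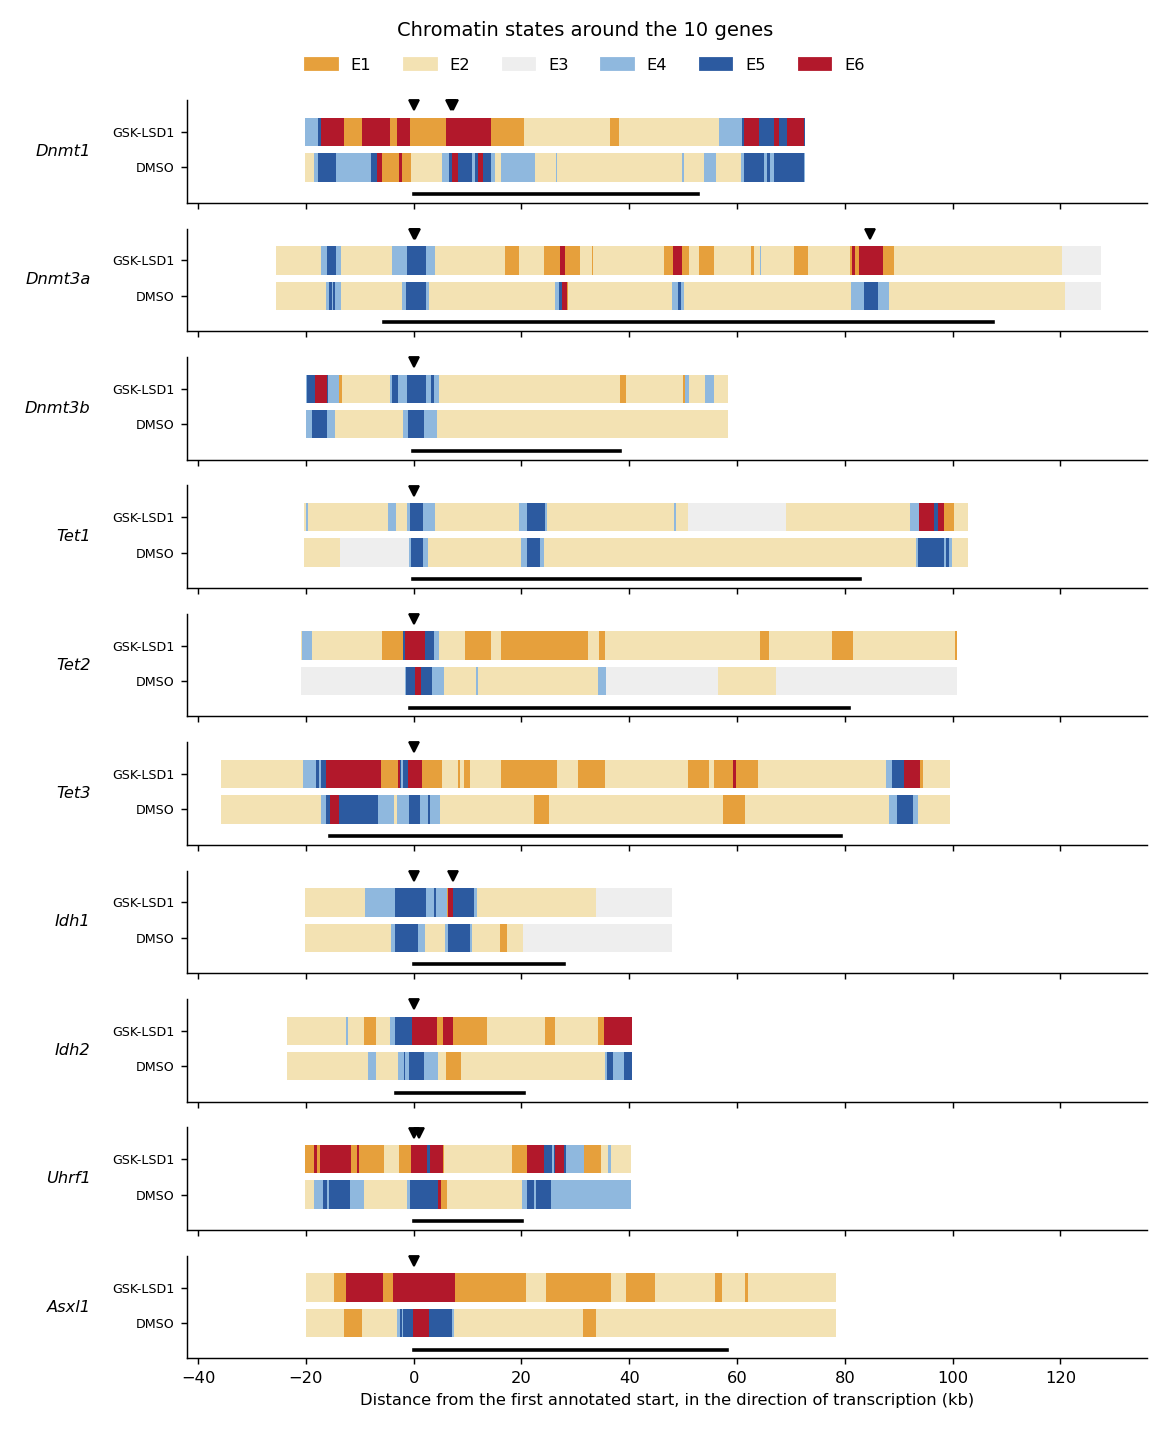
Chromatin states in each gene and 20 kb either side, GSK-LSD1 above DMSO, drawn by distance in kb from the first annotated start in the direction of transcription. Black lines mark the annotated gene and triangles the annotated starts. E6 with E1 around it lies at the starts of Dnmt1, Uhrf1 and Asxl1 in GSK-LSD1, while the E5 at the starts of Dnmt3b and Tet1 lies between E4 in both treatments.

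Dnmt3a held both patterns within 1 gene, and Tet1 and Tet2 differed in the same way between genes. The 250 bases before these 4 starts are therefore shown (RefSeq, GRCm38.p6). Each is written 5′ to 3′ in the direction of transcription, with every CpG in capitals. The stretches lie at chr12:3806730-3806979 on the plus strand (Dnmt3a, first start), chr12:3891494-3891743 on the plus strand (Dnmt3a, internal start), chr10:62887325-62887574 on the minus strand (Tet1) and chr3:133544391-133544640 on the minus strand (Tet2).
Dnmt3a first start: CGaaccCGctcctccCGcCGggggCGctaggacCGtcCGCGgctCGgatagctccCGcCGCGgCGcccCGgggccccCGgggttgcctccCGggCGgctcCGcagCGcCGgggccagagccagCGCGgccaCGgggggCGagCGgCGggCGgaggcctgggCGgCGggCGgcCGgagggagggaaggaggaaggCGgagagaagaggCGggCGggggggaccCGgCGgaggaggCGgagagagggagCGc
Dnmt3a internal start: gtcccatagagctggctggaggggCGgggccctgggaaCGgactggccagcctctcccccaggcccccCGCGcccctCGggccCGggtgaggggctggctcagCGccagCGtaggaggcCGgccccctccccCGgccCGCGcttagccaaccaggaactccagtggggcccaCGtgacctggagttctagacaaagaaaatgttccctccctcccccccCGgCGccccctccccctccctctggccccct
Tet1: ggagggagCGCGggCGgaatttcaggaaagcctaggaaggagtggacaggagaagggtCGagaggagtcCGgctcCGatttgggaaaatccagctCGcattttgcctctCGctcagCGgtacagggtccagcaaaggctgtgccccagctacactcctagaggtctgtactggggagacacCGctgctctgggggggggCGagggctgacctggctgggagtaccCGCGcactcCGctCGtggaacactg
Tet2: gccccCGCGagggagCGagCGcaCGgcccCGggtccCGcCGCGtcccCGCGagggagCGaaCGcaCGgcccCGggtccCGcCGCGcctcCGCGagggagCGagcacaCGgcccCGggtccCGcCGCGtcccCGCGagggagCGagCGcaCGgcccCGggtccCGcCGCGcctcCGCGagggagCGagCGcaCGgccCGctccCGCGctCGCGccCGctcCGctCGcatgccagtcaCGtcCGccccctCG

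The first of these stretches held 38 CpG and the Dnmt3a internal start 15, against a median of 10 (quartiles 3 and 19) over 21044 starts of protein-coding genes. Tet2 held 51, more than at 99.9% of starts, and Tet1 held 15. Of the 2 stretches richest in CpG among these 4, that of Dnmt3a kept E5 and that of Tet2 became E6. Over all starts that were E5 in DMSO, the median was 18 CpG at the 5352 that were E6 in GSK-LSD1 and 16 at the 4918 that were still E5. Motifs were searched on both strands of the same 250 bases at the 16 annotated starts of the 10 genes. TTGCNNAA, a C/EBP motif, and TTCNNNGAA, a STAT motif, had no match at any of the 16, where 9.18% and 6.64% of all starts held them. AAATC, the GFI1 core, was at 4 of 16 (Dnmt1 second start, Dnmt3b, Tet1 and Asxl1), against 30.7% of all starts. CCGGAA, the ETS core, was at 1 of 16, that of Asxl1, against 15.1%. Most of the 16 were E5 in DMSO, and starts of that kind had other rates. AAATC was at 24.9% of starts that passed from E5 to E6 and at 23.0% of those that stayed E5. CCGGAA was at 28.3% and 18.7%, the C/EBP motif at 7.31% and 6.55% and the STAT motif at 6.11% and 5.12%. The stretches before the first 2 Dnmt3a starts overlap, so the 16 are not all separate. No match says only that these letters are not in this window.

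Among the maintenance genes, Dnmt1 (chromosome 9, 20907206 to 20959888) had the most start-type area of the 10. Its window held 32.4 kb in GSK-LSD1 and 23.2 kb in DMSO, a difference of 9.2 kb that put it above 94.2% of protein-coding genes. Within this, E6 covered 27 kb in GSK-LSD1 and 3.6 kb in DMSO, while E5 covered 5.4 and 19.6 kb. Most of the E5 had thus given way to E6. At its second and its last annotated start, which lie close together, 1 unbroken run of E5 or E6 measured 8.2 kb in GSK-LSD1, all of it E6, against 4.4 kb in DMSO, of which 1.2 kb was E6. That run ended in E1 on both sides in GSK-LSD1 and in E4 on both sides in DMSO. The first start, 6.91 kb upstream of the second, lay in E1 in GSK-LSD1 and in E2 in DMSO, so it had no start-type state in its own bin in either treatment. Much of this area lay at other genes. Within 2.5 kb of the ends of its neighbours Ppan, Eif3g and S1pr2 it was 19.4 kb in GSK-LSD1 and 15.4 kb in DMSO. Within 2.5 kb of the Dnmt1 starts it was 5.4 and 3.6 kb. Of the difference, 4.0 kb lay near those neighbours and 1.8 kb near its own starts. E5 and E6 were not set apart in this split. The difference was 1 kb in the gene body alone, 3.6 kb with 5 kb either side and 16.4 kb with 50 kb.

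Uhrf1 (chromosome 17, 56303337 to 56323486) went through the same exchange with little change in length. The run at its starts was 6.0 kb in GSK-LSD1 and 5.8 kb in DMSO, but 5.4 kb of it was E6 in GSK-LSD1 and 0.6 kb in DMSO. Over the whole window E6 measured 17.0 kb in GSK-LSD1 and 0.6 kb in DMSO, and E5 2.6 kb in GSK-LSD1 and 13.8 kb in DMSO. E4 fell to 4.4 kb in GSK-LSD1, against 21.4 kb in DMSO, and 0.897% of protein-coding genes had a larger drop. Of the 5.2 kb by which start-type area was larger, 4.0 kb lay in the flanks, away from the starts of Uhrf1 and from the ends of Plin3, Arrdc5 and Kdm4b, and the area within 2.5 kb of its own starts was smaller by 0.2 kb. The difference was 0.4 kb in the gene body alone, 0.6 kb with 5 kb either side and 8.0 kb with 50 kb.

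The de novo methyltransferase genes changed least among the DNMT genes. Dnmt3a (chromosome 12, 3801559 to 3914443) had 12.2 kb of start-type chromatin in GSK-LSD1 and 9.2 kb in DMSO. Its first 2 starts, 0.18 kb apart, shared a run of E5 alone, 3.4 kb in GSK-LSD1 and 3.6 kb in DMSO, with E4 on both sides in both treatments. At the internal start, 84.8 kb downstream of the first, the run was 4.4 kb of E6 bordered by E1 in GSK-LSD1 and 2.6 kb of E5 bordered by E4 in DMSO. The upstream and internal starts thus carried different states in GSK-LSD1 and the same state in DMSO. E1 was in 12 stretches of at most 3.0 kb along the gene in GSK-LSD1, 21.0 kb in all, and in 1 stretch of 0.2 kb in DMSO. Dnmt3b (chromosome 2, 153649411 to 153687730) kept E5 at its start, over 3.6 kb in GSK-LSD1 and 3.0 kb in DMSO. Its body held no E1 in either treatment, and the 2.2 kb of E6 in its window in GSK-LSD1 lay in the run beside the end of Commd7.

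**Figure D2:**
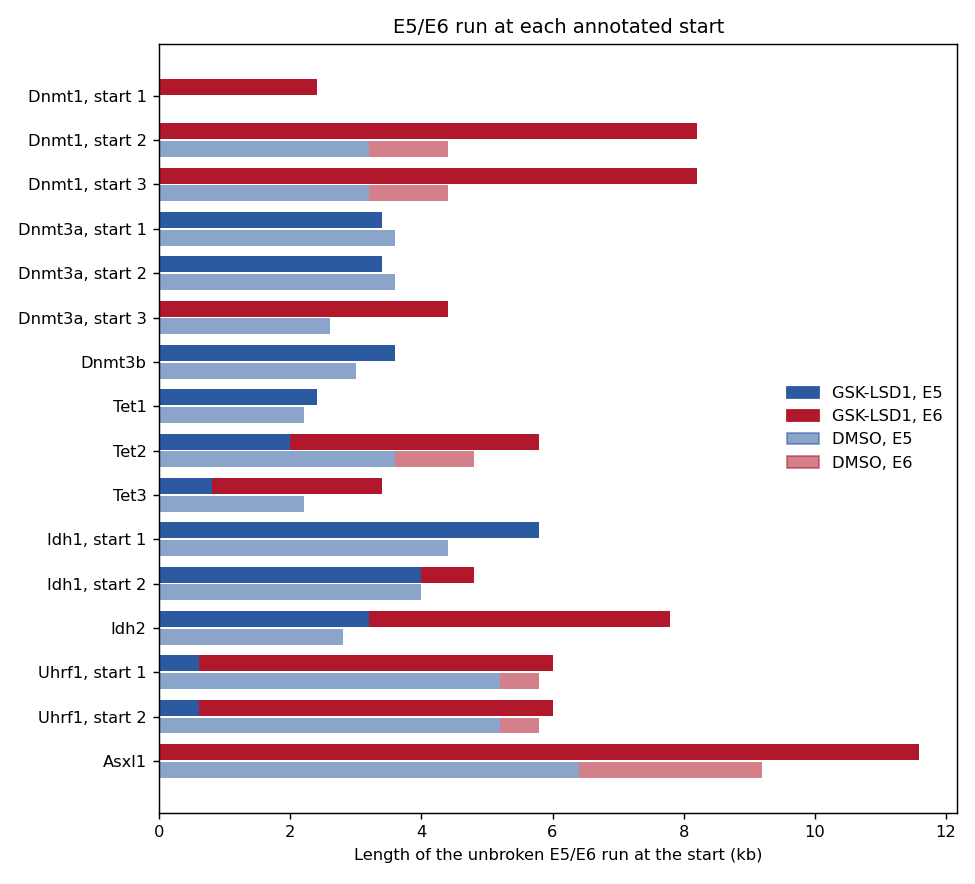
Length in kb of the unbroken E5/E6 run that reaches within 1 kb of each of the 16 annotated starts, with GSK-LSD1 (solid) above DMSO (pale) and the E5 and E6 parts in blue and red. The 2 upstream Dnmt3a starts, Dnmt3b and Tet1 stayed E5, while the Asxl1 run was the longest in both treatments, at 11.6 kb in GSK-LSD1 and 9.2 kb in DMSO.

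The 3 TET genes behaved differently from each other. Tet3 (chromosome 6, 83362373 to 83457208) had 21.4 kb of start-type area in GSK-LSD1 and 15.4 kb in DMSO, with E6 at 16.6 and 1.6 kb. The run at its 1 start in the promoter table was 3.4 kb in GSK-LSD1, 2.6 kb of it E6, and 2.2 kb of E5 in DMSO. Its longest run did not touch that start: it spanned the annotated 5′ end of the gene, over 11 kb in GSK-LSD1 and 9.8 kb in DMSO, and was 10.2 kb E6 in GSK-LSD1 and 1.6 kb E6 in DMSO. E1 covered 35.6 kb of the gene in GSK-LSD1, or 37.6% of it, and 6.8 kb in DMSO.

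Tet2 (chromosome 3, 133463677 to 133545136) changed over most of its window, where 16.4% of the area kept its state, though its start-type area differed little. That area was 5.8 kb in GSK-LSD1 and 4.8 kb in DMSO, all of it in 1 run at the start, with E6 at 3.8 and 1.2 kb. Background E3 covered 0 kb of its window in GSK-LSD1, against 73.4 kb in DMSO. The area in any state but E3 was therefore 121.6 kb in GSK-LSD1 and 48.2 kb in DMSO, and 249 of 21627 genes, Tet2 included, gained as much or more. Of the former E3, 63.0 kb became E2, the broad state that covered 57.3% of the 10 windows in GSK-LSD1 and 65.8% in DMSO, and 8.2 kb became E1. Another 22.4 kb passed from E2 to E1. E1 thus covered 32.2 kb of the window in GSK-LSD1, in 7 stretches of up to 16.2 kb, and 0 kb in DMSO. No other protein-coding gene has an end in this window.

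Tet1 (chromosome 10, 62804570 to 62887469) was the 1 gene of the 10 whose start-type area differed by less than 1 kb, at 10.2 kb in GSK-LSD1 and 10 kb in DMSO. Its start lay in E5 in both, in runs of 2.4 and 2.2 kb, and so did a second run 21.1 kb inside the gene, of 3.2 kb in GSK-LSD1 and 2.4 kb in DMSO. The 3.8 kb of E6 in GSK-LSD1 lay wholly in the run at the end of Ccar1. Tet1 was also the 1 member with at least 1 kb less area in states other than E3, at 105 kb in GSK-LSD1 and 110.4 kb in DMSO, where 19.4% of all genes had such a decrease. Tet2 and Idh1 were the 2 with at least 1 kb more, as were 28.3% of all genes. Over the whole Tet1 window 18.2 kb passed from E2 to E3, while 12.8 kb passed from E3 to E2 or E4.

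The isocitrate dehydrogenase genes differed from each other. Idh2 (chromosome 7, 80094845 to 80118608) had the largest relative increase of the 10, to 14.8 kb of start-type area in GSK-LSD1, against 5.6 kb in DMSO, a ratio of 2.64. The run at its start was 7.8 kb in GSK-LSD1 and 2.8 kb in DMSO, the largest difference in run length among the 16 starts, and 4.4 kb of the new area lay in the gene body beyond 2.5 kb from the start. E6 was 11.6 kb in GSK-LSD1 and 0 kb in DMSO. Idh1 (chromosome 1, 65158616 to 65186479) had 10.8 kb of start-type area in GSK-LSD1 and 8.4 kb in DMSO, of which 0.8 kb and 0 kb were E6. Its first start, which Pikfyve adjoins, lay in a run of E5 alone, 5.8 kb in GSK-LSD1 and 4.4 kb in DMSO. Over the whole Idh1 window E4 measured 9.6 kb in GSK-LSD1 and 2.8 kb in DMSO, an increase larger than the change at 96.6% of genes.

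Asxl1 (chromosome 2, 153345830 to 153404007) kept no E5 or E4. These states measured 0 kb in its window in GSK-LSD1, against 6.6 and 1.2 kb in DMSO, and E6 measured 18.6 and 2.8 kb. The run at its start was 11.6 kb of E6 in GSK-LSD1 and 9.2 kb in DMSO, of which 2.8 kb was E6. A separate run of 7.0 kb of E6, 5.63 kb upstream of the start and near the end of Kif3b, had no E5 or E6 in DMSO, where it was E1 and E2. The difference in start-type area, 9.2 kb, was 0.6 kb in the gene body alone and 2.2 kb with 5 kb either side. Without bins near the ends of other genes, protein-coding or not, it was 3.4 kb. E1 covered 54.3% of the gene in GSK-LSD1, the largest share among the 10 in that treatment, and 4.12% in DMSO.

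**Figure D3:**
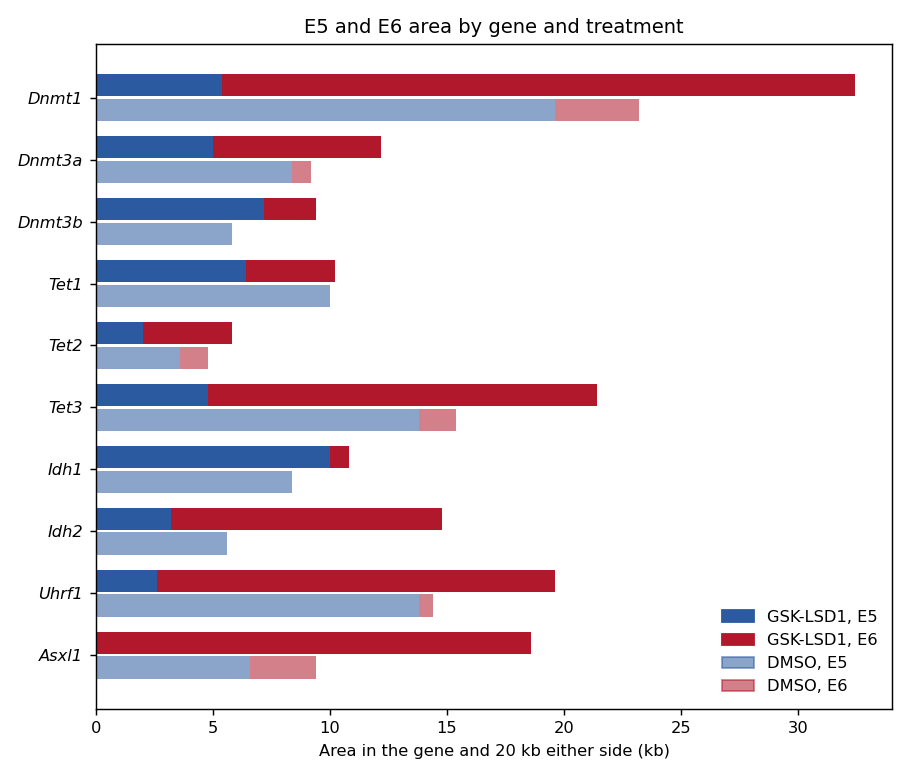
E5 (blue) and E6 (red) area in kb in each gene and 20 kb either side, GSK-LSD1 (solid) above DMSO (pale). The sum was larger in GSK-LSD1 at every one of the 10 genes, by 0.2 kb at Tet1 and by 9.2 kb at Dnmt1, Idh2 and Asxl1, while the E5 part was smaller at 8 of them.

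Set side by side, Dnmt3b, Tet1 and Idh1 were alike in E4 and in E1 with E6. They were not alike in E5, which was smaller at Tet1 and larger at Dnmt3b and Idh1. They were the 3 members with at least 1 kb more E4 in GSK-LSD1, as were 26.7% of all protein-coding genes, while the other 7 had at least 1 kb less, as did 34.2%. They were also the 3 with the smallest change in E1 and E6 together: the 2 states measured 4.2 kb in GSK-LSD1 and 0 kb in DMSO at Dnmt3b, 5.8 and 0 kb at Tet1, and 1.0 and 1.2 kb at Idh1. At the other 7, GSK-LSD1 had between 24.2 kb (Idh2) and 54.6 kb (Asxl1), and DMSO between 1.0 kb (Dnmt3a) and 8.4 kb (Dnmt1, Tet3 and Asxl1). An increase of at least 1 kb in E1 and E6 together was found at 9 of 10 members, against 57.9% of all genes and 78.5% of genes with start-type chromatin in DMSO, and a decrease at 0, against 0.541% of all genes. The median change was 29.3 kb for the members, 2.6 kb for all genes and 7.2 kb for genes with start-type chromatin in DMSO. For E5 and E6 together these medians were 4.4, 1.4 and 2.8 kb. The medians are of area, not adjusted for window length or for the area in DMSO. As a share of bins, E1 and E6 together covered 28.8% of the 10 windows in GSK-LSD1 and 3.34% in DMSO. Over the genome they covered 6.81% and 0.700%, so a large relative rise was general. E5 alone was smaller by at least 1 kb at 8 of 10 members, against 31.7% of all genes and 44.8% of those with start-type chromatin in DMSO. Dnmt3b and Idh1 were the other two, with E5 larger by 1.4 and 1.6 kb, an increase that 17.9% of all genes had. E6 alone was larger by at least 1 kb at 9 members, all but Idh1, against 51.3% of all genes and 71.7% of those with start-type chromatin in DMSO. E1 was larger at the same 9, against 45.5% of all genes, and smaller at Idh1, against 1.05%. E2 was smaller at 8 members, against 53.9% of all genes, and larger at Tet2 and Idh1, against 20.8%.

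**Figure D4:**
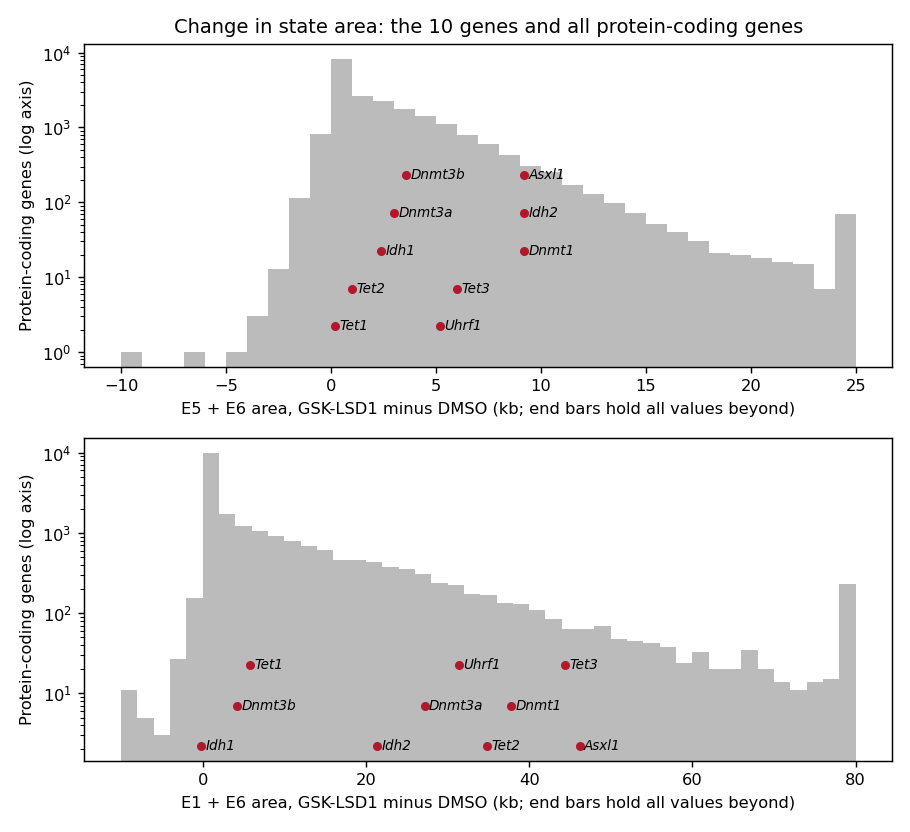
Change in E5 and E6 area (top) and in E1 and E6 area (bottom), GSK-LSD1 minus DMSO in kb, for all protein-coding genes (grey, log axis, end bars holding values beyond the axis) and the 10 genes (red points, whose height has no meaning). In the bottom panel Idh1, Dnmt3b and Tet1 lie at -0.2, 4.2 and 5.8 kb, and the other 7 between 21.4 kb (Idh2) and 46.2 kb (Asxl1).

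At the level of single starts the split was close to that of all genes. Of the 16 annotated starts, 7 passed from E5 in DMSO to E6 in GSK-LSD1, 6 stayed E5, 2 were E6 in both and 1, the first of Dnmt1, passed from E2 to E1. Taking the first start of each gene, 4 of the 8 that were E5 in DMSO were E6 in GSK-LSD1, where 50.2% of 8617 such starts were E6 and 48% still E5 over all protein-coding genes. The first-start run was longer by at least 1 kb at 6 of 10 genes and shorter by as much at 0. Of the 17273 genes that RefSeq gives a tabulated start, 37.4% had a longer run and 0.892% a shorter one. A run was present in both treatments at 9 of the 10 first starts, all but that of Dnmt1, and at 56.7% of all first starts. Of these, 5 of 9 were longer among the members and 63.9% over all genes. Borders went with the state of the start over all genes: of first starts that stayed E5, 86.6% had E4 on both sides in GSK-LSD1 and 9.90% had E1 on a side, and of those that became E6, 51.0% and 48.7% did. Among all starts of the members, each of the 7 that became E6 had E1 on at least 1 side. Of the 6 that stayed E5 all but the second start of Idh1 had E4 on both. These are not separate runs, since the 2 Uhrf1 starts share 1, as do the first 2 of Dnmt3a. On first starts alone, as counted over all genes, 4 became E6, each with E1 on a side, and 4 stayed E5, each between E4. The Uhrf1 run had E1 on its downstream side in DMSO too.

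Most of the area that became start-type was E4 in DMSO. Over the 10 windows 51.2 kb entered E5 or E6 and 2.2 kb left them. Of the gain 64.1% was E4 in DMSO, 18.0% E2, 17.2% E1 and 0.781% background, against 71.0%, 18.0%, 8.76% and 2.18% over the genome. Asxl1 differed, with 54.3% of its gain from E2 and 13.0% from E4, and Dnmt3a took all of its 3.8 kb from E4. Of the E5 area in DMSO 66.9% was E6 in GSK-LSD1 (95% Wilson interval 62.6 to 71.0, counting error only), against 51.3% over the genome. That share pools genes that differed. It was above the genome's at Dnmt1 (16 of 19.6 kb), Tet3 (12 of 13.8) and Uhrf1 (11.8 of 13.8). The same held at Asxl1 (6.6 of 6.6 kb), Idh2 (4.8 of 5.6) and Tet2 (2.4 of 3.6). It was below at Tet1 (3.8 of 10 kb), Dnmt3a (3.6 of 8.4), Dnmt3b (2.2 of 5.8) and Idh1 (0.8 of 8.4). The 10 windows held start-type chromatin in 15.6% of bins in GSK-LSD1 (14.6 to 16.6) and in 10.7% in DMSO (9.84 to 11.6). By place, 9.6 kb of the net difference of 49.0 kb lay within 2.5 kb of the members' own tabulated starts. Another 9.2 kb lay within 2.5 kb of the end of another protein-coding gene. The rest of the flanks held 19.6 kb and the rest of the gene bodies 10.6 kb. Ends of genes of other types were not set apart in this split, so the rest of the flanks may include them. There were 39 start-type runs in GSK-LSD1, 12 of them where DMSO had no start-type bin, and 38 in DMSO, 2 of them where GSK-LSD1 had none. The unmatched runs in GSK-LSD1 were as short as 0.2 kb. The share of unmatched runs over all genes was not computed, so these counts cannot be called particular to the members.

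**Figure D5:**
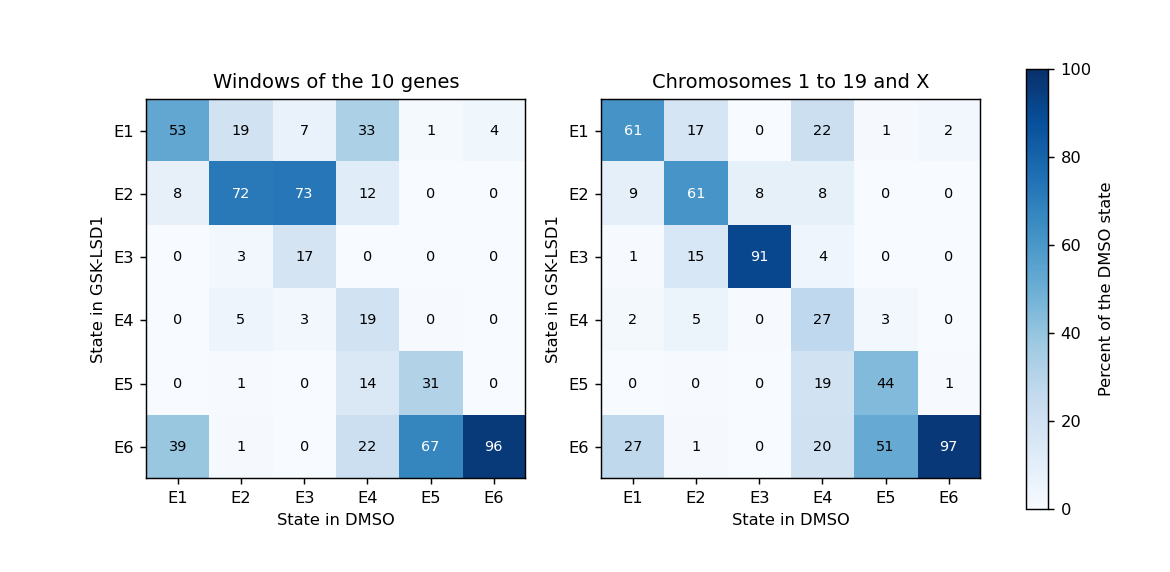
Percent of each DMSO state (columns) that carried each state in GSK-LSD1 (rows), in the windows of the 10 genes (left) and over chromosomes 1 to 19 and X (right). In the windows 66.9% of E5 became E6 and 33.1% of E4 became E1, against 51.3% and 21.6% over the genome. The window shares pool genes that differed: for E5 to E6, from 0.8 of 8.4 kb at Idh1 to 6.6 of 6.6 kb at Asxl1.

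Other genes of the pathway mostly had more start-type area too, as did 79.3% of all genes with start-type chromatin in DMSO. Of 42 genes in 5 lists, 35 had at least 1 kb more E5 and E6 in GSK-LSD1, 0 had less and 7 lay within 1 kb, with a median change of 2.7 kb. Among partners of the methyltransferases, 6 of 8 were higher. Usp7, which deubiquitinates UHRF1 and DNMT1, had 17.8 kb in GSK-LSD1 and 9.0 kb in DMSO, and Dmap1, a DNMT1-binding protein, had 3.8 and 4.0 kb. Of proteins that read methylated DNA 7 of 8 were higher, and Zbtb4 had 25.6 kb in GSK-LSD1 and 17.4 kb in DMSO. In active demethylation 6 of 9 were higher. Cxxc5, a CXXC zinc finger gene, had 28.8 kb in GSK-LSD1 and 16.8 kb in DMSO, and its relative Cxxc4 had 6.6 and 7.2 kb. Wt1, whose product recruits TET2, had 0 kb in both. All 8 genes of metabolite supply were higher, from Ahcy, which clears the methylation by-product S-adenosylhomocysteine (12.8 and 8.6 kb), to Idh3g, a subunit of the mitochondrial isocitrate dehydrogenase of the citric acid cycle (6.2 and 5.2 kb). In the ASXL-BAP1 module 8 of 9 were higher. Foxk1, a forkhead factor that binds BAP1, had 33.4 kb in GSK-LSD1 and 19.6 kb in DMSO, and Ogt, the O-GlcNAc transferase of the same complex, had 5.6 and 5.4 kb. The paralogue Asxl2 had 11.6 kb in GSK-LSD1 and 8.2 kb in DMSO, and Bap1 itself 7.0 and 5.0 kb.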

How the data were processed

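For each treatment the authors deposited 1 segmentation built from its 3 marks, a list of segments with a state label (E1 to E6) and no other score. Per the submitters' processing notes, reads were handled with Bowtie on mm10 (GRCm38). Not given in the sources used here are the Bowtie version, the segmentation tool, its thresholds and the use of the input. Library depth, unknown here, can change how much area a state covers. Segments were expanded here to 200 bp bins (Python 3.11.15, pandas 2.3.3) on chromosomes 1 to 19 and X. A window was the gene plus 20 kb either side, with genes, starts and promoter sequences from RefSeq (GRCm38.p6). A difference of 1 kb was a call. Shares have 95% Wilson intervals (statsmodels 0.14.6), which cover counting error only. The counting of area was checked by relabelling bins of the DMSO segmentation as E6: planted area came back in 200 of 200 genes. That checks the counting step alone, not the placing of windows or the annotation. The members, the lists and the E5 and E6 roles were chosen with earlier results of these data known. All 10 members are named. Of each pathway list the genes with the largest and smallest change are, except 1 that is not reported here, and Wt1, Asxl2 and Bap1 were added after their values were seen. No p-value was computed.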

Additional observations from a re-analysis of the deposited data

How the results depend on the processing

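The counts of members with more E5 and E6, more E1 and E6 and less E5 were taken again under other settings. These were 5 or 50 kb beyond the gene, the gene body alone and 20 kb either side of both gene ends. In others, bins near the ends of other genes, protein-coding or not, were left out, or short segments were merged. Calls were also made at any difference and at 2 kb. Under all of these the counts stayed within 1.5 times the reported ones. That limit is wide: no rise from 9 of 10 could pass it, and a fall from 9 to 6 lies on it. E5 and E6 gave 6 members with the gene body alone and 8 to 10 under the others. With E5 alone, members with more start-type area fell to 2. With E4, E5 and E6 together, or only within 2.5 kb of the members' own starts, both chosen after seeing the data, they fell to 5 each. Shares over all genes were computed for the reported setting and for E5 alone, not for the other settings. The direction of the start-type gain therefore rests on counting E6 with E5. With E5 alone the change was -14.2 kb at Dnmt1, -3.4 at Dnmt3a, -3.6 at Tet1, -1.6 at Tet2, -9.0 at Tet3, -2.4 at Idh2, -11.2 at Uhrf1 and -6.6 at Asxl1. With E4 included it was -4.8 kb at Dnmt1, -0.6 at Tet2, -1.2 at Tet3 and -11.8 at Uhrf1. Tet1 turned to -0.6 kb with windows at the gene ends only and to -0.2 kb without bins near other genes' ends, and Uhrf1 to -0.2 kb within 2.5 kb of its own starts. The share of bins in E5 or E6 moved with the window, in GSK-LSD1 and DMSO: 14.0% and 10.2% with 5 kb, 14.5% and 9.80% with 50 kb, 12.8% and 9.78% in gene bodies, 19.2% and 13.2% at gene ends, 10.5% and 6.77% without bins near other genes' ends, and 74.7% and 60.2% within 2.5 kb of the own starts. It was 4.68% and 9.61% for E5 alone and 20.9% and 19.8% with E4 included. The size of the gain also moved with the window: in gene bodies alone and with 50 kb it was 2.4 and 11 kb at Tet3, 6.6 and 15.6 kb at Idh2, 1.0 and 4.2 kb at Dnmt3b, 0.4 and 2.0 kb at Tet2 and 0.8 and 2.0 kb at Tet1. Depth could not be assessed, and none of the 6 states is known to mean the same marks in both treatments.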

Other observations

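Likeness was taken over the pairs of DMSO and GSK-LSD1 states: for each pair the smaller of the windows' shares, summed over all pairs. It takes no account of where in a window a pair lay. The gene most like Tet2 outside the list was Kdm1a, which encodes LSD1 itself, at 89.9%, where the median over genes was 21.3%. Around Kdm1a (chromosome 4, 136550533 to 136602787) background E3 covered 0 kb in GSK-LSD1 and 50.4 kb in DMSO, E1 covered 22.8 and 1.2 kb, and E5 and E6 together 4.8 and 2.8 kb. For the other members the most alike genes were Mvp (Dnmt1, 86.4%), Aebp2 (Dnmt3a, 92.6%), Cenpm (Dnmt3b, 96.1%), Mtor (Tet1, 89.5%), Map3k14 (Tet3, 92.8%), Zfp369 (Idh1, 88.3%), Adamts10 (Idh2, 91.5%), Sp2 (Uhrf1, 86.4%) and Kctd20 (Asxl1, 90.8%). Each value is a description of these 2 segmentations. Among the members Idh2 and Tet3 shared most, at 89.1%, and Dnmt3b and Tet2 least, at 20.3%.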
